A study of Mus musculus with 4 samples.

Results

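The oxidative phosphorylation genes described here are the 110 of 32286 features whose symbols begin with Nduf, Uqcr, Atp5, Sdha to Sdhd, Cox4 to Cox8 or mt-, without names that contain -ps. Of these genes 97 lie in the nuclear genome and 13 on the mitochondrial chromosome. By symbol the nuclear genes hold 36 subunits of complex I, 4 of complex II, 8 of complex III, 19 of complex IV and 17 of complex V. The remaining nuclear genes are 8 assembly factors of complex I, 4 assembly factors of complex II and Cox7a2l, counted here as a factor of supercomplex assembly. Genes of the same chain outside this naming rule, such as Cyc1 of complex III, are given apart.

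Oxidative phosphorylation passes electrons from NADH through complexes I, III and IV, and from succinate through complex II, to oxygen, and complex V makes ATP from the proton gradient that results. All complexes but complex II combine subunits encoded in the nucleus with subunits encoded by mitochondrial DNA, so the chain is built from both genomes. Neurons draw most of their ATP from this chain, and fast-spiking interneurons are known for their dense mitochondria. Mitochondrial transcripts are made inside mitochondria and not in the nucleus.

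Nuclei were isolated from frozen primary motor cortex of C57BL/6N mice and profiled with the 10x 3′ v3.1 chemistry, in a study of expression in cortical cells at different sleep need. The 4 libraries are 1 from mice deprived of sleep by gentle handling (SD), 1 from mice given an AAV8 vector for FLAG-tagged SIK3 without exon 13 (Ex13del), which the study calls a gain-of-function form, 1 from mice given the same vector for wild-type SIK3 (SIK3-WT), and 1 from mice that slept ad lib without deprivation (AL). SIK3 is a protein kinase of sleep-need signalling, and the vectors were given locally and use the human synapsin promoter, which drives expression in neurons. All 4 groups share the strain and tissue, and animal age and the number of animals behind a library are not given in the sources used here.

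With 1 library per group there is no replicate check of any difference between groups and no test. Levels are UMIs per 1000000 UMIs (CPM) of a cell class in a library. An SD over libraries is over 4 different conditions, with n = 4. The 95% intervals on ratios and shares cover counting error only.

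The deposited tables held 5944 barcodes in SD, 6259 in Ex13del, 6978 in SIK3-WT and 9438 in AL, with medians of 4403 to 5111 UMIs, and 33 to 40 barcodes of each library also occurred in another one. Nuclei kept after filtering numbered 5287 in SD, 5511 in Ex13del, 6336 in SIK3-WT and 8221 in AL, 25355 in all. UMIs of the vector feature numbered 0 in SD, 5090 in Ex13del, 3441 in SIK3-WT and 0 in AL. The filter at 5% mitochondrial UMIs removed 290 SD, 199 Ex13del, 160 SIK3-WT and 285 AL barcodes, and so sets the upper end of every mitochondrial level below. Class names came from marker genes, so the levels of these markers are no independent check of the names. Clusters made without the oxidative phosphorylation genes gave 10 classes named from 10 markers each, for all of which 7 or more markers were highest in their own class. They held 10439 excitatory-neuron-like, 2923 inhibitory-neuron-like, 1183 striatal-projection-neuron-like, 1566 astrocyte-like, 2106 oligodendrocyte-like, 522 oligodendrocyte-precursor-like, 595 microglia-like, 1138 endothelial-like, 438 pericyte-and-smooth-muscle-like and 186 leptomeningeal-fibroblast-like nuclei. A further 4259 nuclei stayed unnamed. The endothelial-like cluster also met the marker rule of excitatory neurons and was named from its leading genes.

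Of the members, Cox8c had 0 UMIs and Cox8b under 100 UMIs in all kept nuclei, and 91 of the 97 nuclear genes averaged at least 5 CPM. The nuclear genes lie on 19 chromosomes. On mm10 33 members overlap another feature on the opposite strand, and whether counting used the strand is not given in the sources used here. Reads of these genes, of mt-Nd4l with mt-Nd4, of mt-Atp8 with mt-Atp6, and of members with pseudogene or nuclear copies may be split uncertainly.

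Nuclear genes of this family are known to share promoter motifs, so promoters of 250 bases before to 50 bases after the start site were searched on both strands. RefSeq (GRCm38.p6) promoters matched 79 of the 97 nuclear genes by symbol. A core of the NRF1 motif, GCGCANGCG, was found in 24 of these promoters (30.4%), against 7.03% of all 27025 promoters in the table. The ETS-family motif, CCGGAAG, was found in 22 (27.8%), against 9.93% of all promoters, and the YY1 motif, AAGATGGCG, in 8 (10.1%), against 1.64%. At least 1 of the 3 motifs was found in 44 of 79 member promoters (55.7%) and in 16.5% of all promoters. The ETS letters end in AAG and the YY1 letters begin with it, so matches of these can overlap, and overlapping matches of 1 motif count once. A match is a description, not a site or a cause.

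Shown here are the 250 bases before the start sites of 4 genes to which the results return, all on the minus strand, with motif matches in capitals. Atp5k at chr5:108434400-108434649 had the highest Ex13del level relative to SIK3-WT and Cox6a1 at chr5:115348959-115349208 the lowest. Cox6b1 at chr7:30626115-30626364 and Cox6b2 at chr7:4753095-4753344 are a widely used complex IV subunit and its testis-known paralog. Capitals mark NRF1 letters in Atp5k, 2 NRF1 matches and 1 ETS match (CTTCCGG, the reverse complement) in Cox6a1, and 1 such ETS match in Cox6b1. The window of Cox6b2 held none of these letters.
Atp5k: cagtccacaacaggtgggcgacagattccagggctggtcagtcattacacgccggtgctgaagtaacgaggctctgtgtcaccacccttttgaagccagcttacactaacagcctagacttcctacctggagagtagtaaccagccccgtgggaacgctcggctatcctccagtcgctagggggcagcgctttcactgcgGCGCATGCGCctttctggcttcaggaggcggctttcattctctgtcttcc
Cox6a1: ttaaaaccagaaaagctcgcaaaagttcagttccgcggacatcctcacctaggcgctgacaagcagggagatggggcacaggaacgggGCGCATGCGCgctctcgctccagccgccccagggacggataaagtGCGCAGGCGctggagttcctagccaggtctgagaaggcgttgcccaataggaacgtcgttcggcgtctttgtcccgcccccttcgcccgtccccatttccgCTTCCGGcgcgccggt
Cox6b1: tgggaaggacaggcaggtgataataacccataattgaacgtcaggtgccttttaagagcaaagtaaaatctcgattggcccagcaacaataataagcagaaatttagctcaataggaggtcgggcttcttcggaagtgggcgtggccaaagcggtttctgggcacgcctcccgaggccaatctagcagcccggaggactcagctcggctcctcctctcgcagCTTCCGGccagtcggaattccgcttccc
Cox6b2: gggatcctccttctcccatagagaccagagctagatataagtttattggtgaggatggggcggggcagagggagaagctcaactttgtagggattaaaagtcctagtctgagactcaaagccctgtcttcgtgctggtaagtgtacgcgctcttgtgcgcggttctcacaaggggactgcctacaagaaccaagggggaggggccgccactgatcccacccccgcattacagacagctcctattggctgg

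Among the named classes, over nuclei of all depths, the nuclear genes were highest per UMI in endothelial-like nuclei and lowest in excitatory neurons. In endothelial-like nuclei they summed to 16252 CPM in SD, 15698 CPM in Ex13del, 16081 CPM in SIK3-WT and 17804 CPM in AL, or 16459 ± 926 (SD, n = 4). In excitatory neurons they summed to 4933 CPM in SD, 4697 CPM in Ex13del, 4773 CPM in SIK3-WT and 5007 CPM in AL, or 4853 ± 142 (SD, n = 4). The ratio of the 2 means was 3.39, and each endothelial-like value lay above each excitatory value. Between these lay microglia-like (12679 ± 1272 CPM), oligodendrocyte-like (12324 ± 727), fibroblast-like (11538 ± 1225), pericyte-like (11006 ± 891), astrocyte-like (9820 ± 650), precursor-like (8541 ± 389), inhibitory (6443 ± 276) and striatal-projection-like nuclei (5698 ± 329; SD, n = 4 each). In this order the ranges over libraries did not overlap between endothelial and microglia-like, pericyte and astrocyte-like, precursor and inhibitory, and striatal-projection-like and excitatory nuclei. All other neighbours overlapped.

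**Figure D1:**
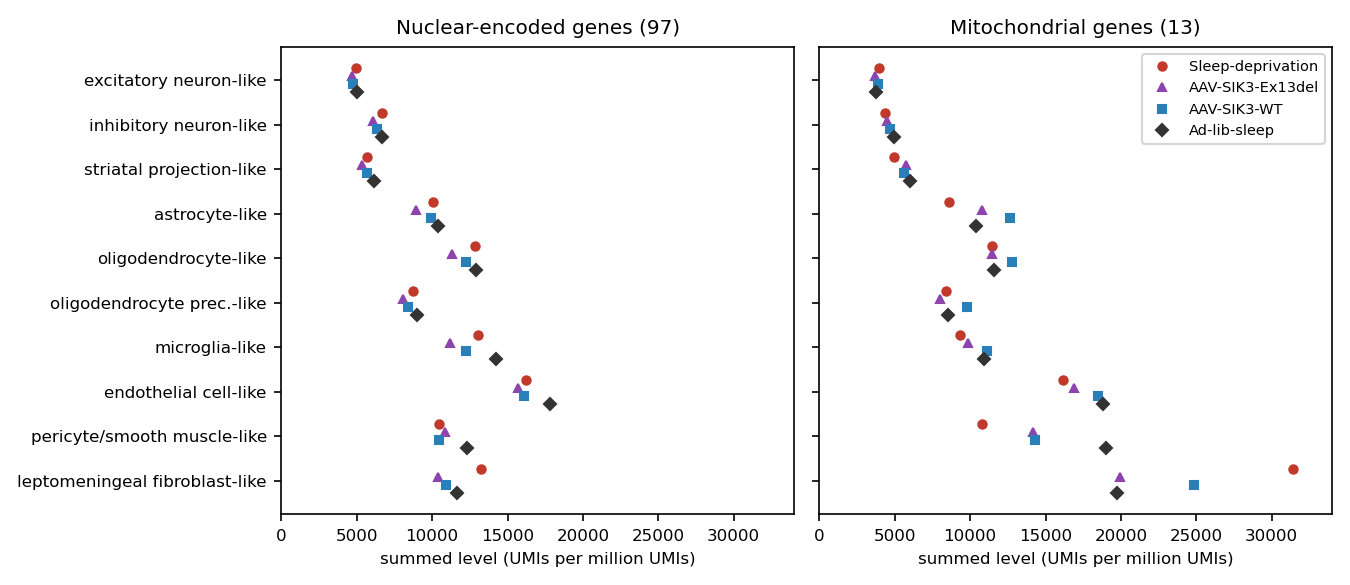
Summed level of the nuclear (left) and mitochondrial (right) genes in CPM (x axis) for each cell class (y axis), with 1 point per library. The excitatory, inhibitory and striatal-projection-like classes sit lowest in both panels, and the fibroblast-like and pericyte-like points of the mitochondrial panel are the most spread out.

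The mitochondrial genes had another order at the top. They were highest in fibroblast-like nuclei, at 31441 CPM in SD (46 nuclei), 19930 CPM in Ex13del (47 nuclei), 24874 CPM in SIK3-WT (34 nuclei) and 19752 CPM in AL (59 nuclei). Endothelial-like nuclei followed at 17569 ± 1278 CPM and pericyte-like nuclei at 14585 ± 3379 CPM (SD, n = 4 each). In excitatory neurons the level was 3979 CPM in SD, 3714 CPM in Ex13del, 3857 CPM in SIK3-WT and 3765 CPM in AL, or 3829 ± 116 (SD, n = 4), and the endothelial-like mean was 4.59 times that mean. Neighbouring ranges did not overlap between fibroblast and endothelial-like, precursor and striatal-projection-like, striatal-projection-like and inhibitory, and inhibitory and excitatory nuclei. Mitochondrial over nuclear level ran between 0.75 and 0.81 in excitatory neurons of the 4 libraries and between 1.70 and 2.38 in fibroblast-like nuclei.

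These class levels moved with depth. Median depth was 13853 UMIs in SD, 9972 in Ex13del, 9168 in SIK3-WT and 7402 in AL excitatory neurons, and 1962 in SD, 1503 in Ex13del, 1503 in SIK3-WT and 1219 in AL endothelial-like nuclei. Among nuclei of 2000 to 4000 UMIs outside the members, the nuclear genes averaged 13568 ± 1140 CPM in endothelial-like nuclei and 9779 ± 1630 CPM in excitatory neurons (SD, n = 4 each), a ratio of 1.39. In that range the precursor-like over excitatory ratio, 1.76 over all nuclei, was 0.987. Other means there were 12410 CPM in pericyte-like, 11393 in inhibitory, 11284 in oligodendrocyte-like, 10965 in microglia-like and 10523 in astrocyte-like nuclei. Striatal-projection-like nuclei had 9269 CPM in the 3 libraries that gave a value. The order of classes over all nuclei was thus not kept in this range. The mitochondrial ratio of endothelial-like to excitatory nuclei was 2.36 there, with means of 17067 and 7224 CPM. Fewer transcripts of these genes per nucleus and more of all others cannot be told apart in a share of UMIs.

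Within excitatory neurons complexes I and IV each took 29.9% of the nuclear member UMIs in the mean over libraries, complex V 22.1%, complex III 7.43% and complex II 2.87%. The complex I subunits summed to 1489 CPM in SD, 1411 CPM in Ex13del, 1394 CPM in SIK3-WT and 1502 CPM in AL. Complex IV summed to 1448 CPM in SD, 1360 CPM in Ex13del, 1495 CPM in SIK3-WT and 1509 CPM in AL. Both were lowest in a vector library, complex I in SIK3-WT and complex IV in Ex13del. The members with most UMIs of their own complex in excitatory neurons were Ndufs4, an accessory subunit of complex I (103 ± 3.82 CPM), Sdha, the flavoprotein of complex II (74.3 ± 5.58 CPM), Uqcrh of complex III (63.8 ± 5.22 CPM), Cox8a of complex IV (253 ± 20.8 CPM) and Atp5b, the catalytic beta subunit of complex V (110 ± 4.79 CPM; SD, n = 4 each). Levels of different genes are not compared, since CPM is not per length and long introns add UMIs in nuclei.

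Of the subunit isoforms known for tissue-specific use, Cox4i2, Ndufa4l2, Cox6a2 and Cox6b2 averaged at most 2.4 CPM in excitatory neurons and were higher in other classes. Cox4i2 (chr2:152754173-152765037, plus strand), the complex IV subunit 4 isoform known from lung and hypoxia, had 48.6 CPM in SD (18 UMIs), 54.1 CPM in Ex13del (16 UMIs), 71.6 CPM in SIK3-WT (36 UMIs) and 69.7 CPM in AL pericyte-like nuclei (29 UMIs). Its mean was 5.9 CPM in endothelial-like nuclei and 0.6 CPM in excitatory neurons. Ndufa4l2 (chr10:127514967-127517154, plus strand), a hypoxia-induced paralog of Ndufa4, had 83.7 CPM in SD, 112 CPM in Ex13del, 67.6 CPM in SIK3-WT and 98.5 CPM in AL pericyte-like nuclei. It averaged 12.7 CPM in endothelial-like nuclei and 0.5 CPM in excitatory neurons. Both genes were thus highest in the pericyte-like class of every library, where the common isoforms were present too, Cox4i1 at 388 ± 45.9 CPM and Ndufa4 at 389 ± 75.5 CPM (SD, n = 4).

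Cox6a2 (chr7:128205435-128206387, minus strand), the heart and muscle isoform of subunit 6a, was highest among neuronal subclasses in Pvalb-interneuron-like nuclei. It had 19.6 CPM in SD (34 UMIs), 23 CPM in Ex13del (43 UMIs), 26.9 CPM in SIK3-WT (57 UMIs) and 32.1 CPM in AL Pvalb-like nuclei (80 UMIs). In Lamp5 and Sncg type interneurons it had 9.1 CPM in SD, 7.6 CPM in Ex13del, 18.7 CPM in SIK3-WT and 17.3 CPM in AL. Sst-like nuclei averaged 2.6 CPM, Vip-like nuclei 3.6 CPM and excitatory neurons 2.4 CPM, so the Pvalb-like values lay above these means in all 4 libraries. Cox6a2 overlaps Itgad, and the shallow glial classes held it as well, with 10.8 CPM in microglia-like and 10.7 CPM in oligodendrocyte-like nuclei. The common isoform Cox6a1 averaged 93.8 CPM in Pvalb-like nuclei and 62.1 CPM in excitatory neurons.

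**Figure D2:**
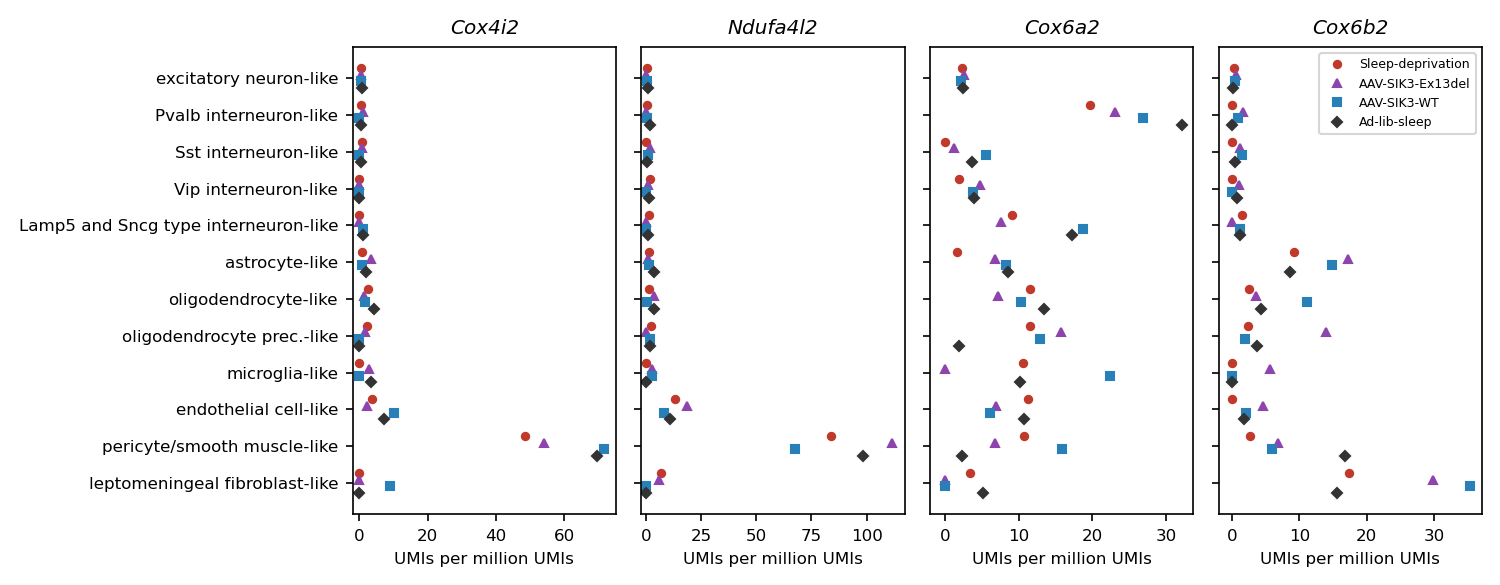
CPM (x axes) of Cox4i2, Ndufa4l2, Cox6a2 and Cox6b2 by cell class (y axis), 1 point per library. Cox4i2 and Ndufa4l2 points lie farthest right in pericyte-like nuclei, at 48.6 to 71.6 CPM and 67.6 to 112 CPM.

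Cox6b2 averaged 12.5 CPM in astrocyte-like nuclei, with 9.3 CPM in SD, 17.2 CPM in Ex13del, 14.8 CPM in SIK3-WT and 8.6 CPM in AL, and 0.4 CPM in excitatory neurons. Its 24.5 CPM in fibroblast-like nuclei rest on 3 to 5 UMIs per library. Cox7a1 and Cox8b, the heart and muscle isoforms of subunits 7a and 8, averaged at most 5.8 and 1.3 CPM in any class. The genes for the identical mature c subunit of complex V were all in use, with means in Pvalb-like against excitatory nuclei of 107 and 64.2 CPM for Atp5g1, 56.4 and 44.8 CPM for Atp5g2, and 119.5 and 65.3 CPM for Atp5g3. Each of the 3 was higher in the Pvalb-like class, as the summed nuclear genes were.

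The members that led a class relative to the median of the other ranked classes differed between classes. Only excitatory, inhibitory, striatal-projection-like, astrocyte-like, oligodendrocyte-like and endothelial-like nuclei were ranked. Microglia-like, precursor-like, pericyte-like and fibroblast-like nuclei entered neither the ranking nor its medians. Ndufaf7, an arginine methyltransferase of complex I assembly (chr17:78937136-78948052, plus strand), averaged 81.8 ± 6.33 CPM in excitatory neurons (SD, n = 4), 1.13 times that median, while the next, the complex II assembly factors Sdhaf3 (0.975 times) and Sdhaf2 (0.973 times), lay just below theirs. The complex I assembly factor Ndufaf5 led inhibitory neurons at 45.8 CPM (1.68 times) and striatal-projection-like nuclei at 34.6 CPM (1.28 times). Ndufaf7 came next in inhibitory neurons, at 98.6 CPM (1.36 times), above its excitatory level. In the endothelial-like, oligodendrocyte-like and astrocyte-like classes the 3 leading members were Atp5e, Uqcr11 and a complex I subunit. Atp5e, the epsilon subunit of complex V, averaged 158 CPM in endothelial-like nuclei (4.15 times the median of the others), 107 CPM in oligodendrocyte-like (2.82 times) and 74.9 CPM in astrocyte-like nuclei (1.98 times). Uqcr11, a small subunit of complex III, averaged 258 CPM (4.05 times), 179 CPM (2.81 times) and 132 CPM (2.08 times) in the same 3 classes. The complex I subunits were Ndufs6 in endothelial-like (3.76 times), Ndufb11 in oligodendrocyte-like (2.77 times) and Ndufc2 in astrocyte-like nuclei (1.94 times). Endothelial-like, oligodendrocyte-like and astrocyte-like nuclei were also shallow, with typical library medians of 1503, 2065 and 3052.5 UMIs against 9570 in excitatory neurons. All these ratios to the median were taken with 1 CPM added to both values. They are over nuclei of any depth, so depth can enter them, which was not tested.

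Among neuronal subclasses Pvalb-like interneurons had the highest nuclear level, with 7820 CPM in SD, 6795 CPM in Ex13del, 7047 CPM in SIK3-WT and 7448 CPM in AL. Lamp5 and Sncg type (mean 6397 CPM), layer 5/6 near-projecting (6303), Vip (6041), Sst (5630), layer 6 corticothalamic (5210), layer 6b (4899), layer 2/3 intratelencephalic (4828), layer 6 intratelencephalic (4516) and layer 5 extratelencephalic nuclei (4504) followed. Of these neighbours only layer 2/3 and layer 6 intratelencephalic nuclei had ranges that did not overlap. At 4000 to 8000 UMIs Pvalb-like nuclei averaged 9108 ± 1455 CPM (SD, n = 4), Vip-like nuclei 6658 CPM and excitatory neurons 6465 CPM. The mean mitochondrial level was 5203 ± 112 CPM in Pvalb-like nuclei (SD, n = 4), 4900 CPM in Vip-like, 4516 CPM in layer 2/3 and 3016 CPM in layer 5 extratelencephalic nuclei. Pvalb-like lay above Vip-like nuclei in 3 of 4 libraries, with overlapping ranges, and at 8000 to 16000 UMIs Pvalb-like and layer 2/3 nuclei averaged 4858 and 4857 CPM.

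Within excitatory neurons the level differed more between depth ranges than between libraries. In excitatory neurons the nuclear genes averaged 9779 CPM at 2000 to 4000 UMIs and 3834 CPM at 16000 UMIs or more, and the mitochondrial genes 7224 and 2985 CPM. Of 81 nuclear genes with at least 20 CPM, 79 were higher in the shallower nuclei, against 64.1% of all 7227 features, and 63 by more than 2-fold, against 8.74%. The median log2 ratio of the shallow to the deep range was 1.51 over the nuclear and 1.09 over the 13 mitochondrial genes, beside 0.14 over all features. Complex I (1.55), complex III (1.39), complex IV (1.58) and complex V (1.45) were alike, and each of their measured genes was higher in the shallow range. Complex II (0.56, 3 genes) and the complex I assembly factors (0.38, 4 genes) had smaller medians.

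**Figure D3:**
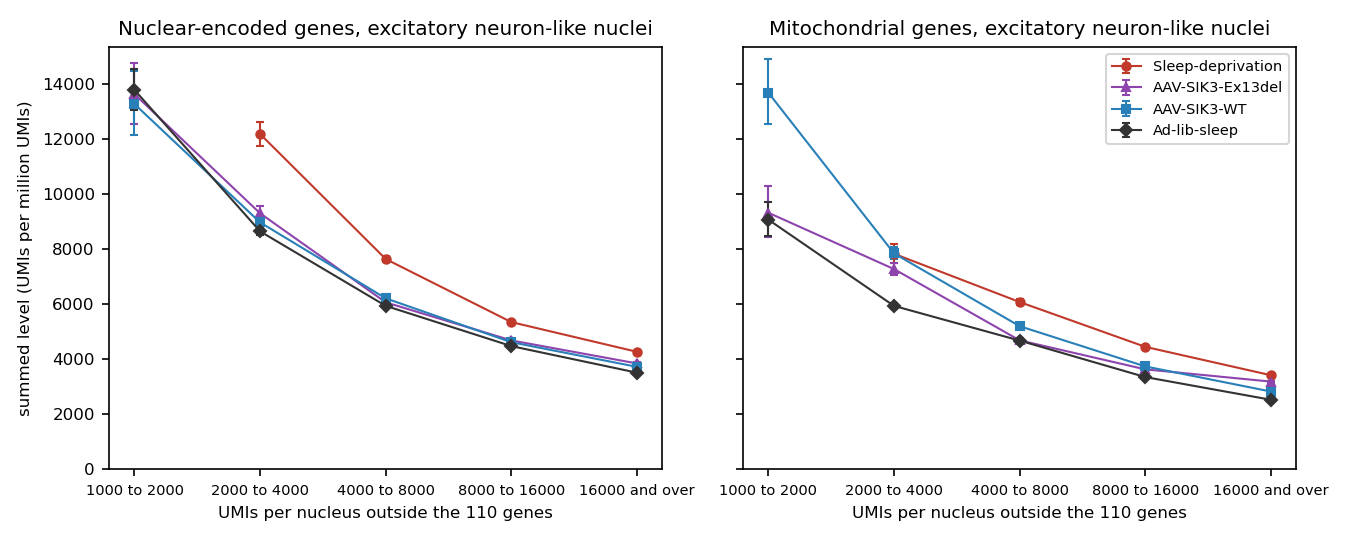
Summed level of the nuclear (left) and mitochondrial (right) genes in CPM (y axis) in excitatory neurons by range of UMIs outside the members (x axis), 1 line per library. Levels are lower at each deeper range from 2000 to 4000 UMIs up, and the SD line runs above the AL line, at 12191 against 8648 CPM for the nuclear genes at 2000 to 4000 UMIs.

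Single members spread widely in this depth comparison. Atp5e had 90.9 CPM in the shallow range against 21.6 CPM in the deep one, a log2 ratio of 2.02, and Uqcrb and Ndufc2 each had 1.91. At the other end Sdhaf2, an assembly factor of complex II, had -0.06, Ndufaf5 -0.02 and Ndufs4 0.14. Across the 81 nuclear genes the log2 ratio went down with log10 gene length (Pearson r = -0.69, Spearman rho = -0.60), a description over genes that share libraries and nuclei. The median was 1.58 over 53 members under 10 kb, 0.97 over 26 members of 10 to 50 kb and 0.26 over Ndufs4 and Ndufaf2, the 2 above 50 kb. All features under 10 kb had a median of 0.90 and those of at least 50 kb -0.06. Cytosolic ribosomal proteins had 1.75 (77 of 77 higher in the shallow range), glycolysis 0.95 (16 of 16) and nuclear retained noncoding RNAs -0.24 (2 of 8).

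The SD against AL comparison asks what sleep loss does in these cells. Over all excitatory neurons the nuclear genes summed to 4933 CPM in SD and 5007 CPM in AL, a ratio of 0.985 (95% interval 0.978 to 0.992) that was 1.03 with TMM scaling. The mitochondrial genes summed to 3979 CPM in SD and 3765 CPM in AL, a ratio of 1.06 (1.05 to 1.07). Over the 10 classes, which share their libraries, the nuclear ratio ran between 0.847 in pericyte-like and 1.14 in fibroblast-like nuclei and was above 1 in 1 class. In excitatory neurons the SD nuclei were also the deeper ones, with the medians given above. These values leave out an unnamed shallow cluster, kept from the excitatory name by low depth, with 28.1% of kept SD and 7.89% of AL nuclei.

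Compared within ranges of the same depth the nuclear sum was higher in SD. In excitatory neurons of 2000 to 4000 UMIs it was 12191 CPM in SD (81 nuclei) and 8648 CPM in AL (510 nuclei), a ratio of 1.41 (1.36 to 1.47). At 4000 to 8000 UMIs it was 7642 CPM in SD and 5938 CPM in AL, at 8000 to 16000 UMIs 5347 CPM in SD and 4475 CPM in AL, and at 16000 or more 4266 CPM in SD and 3507 CPM in AL. With each range weighted by its UMIs in both libraries together, the sum was 5593 CPM in SD and 4523 CPM in AL, a ratio of 1.24 (1.23 to 1.247). The ratio was above 1 in 9 of 9 classes that could be matched (1.10 to 1.29) and in 23 of 23 ranges within them. The same range lies lower in the depth order of SD than in that of AL, and within the deepest range SD excitatory neurons still averaged 24423 UMIs against 19692 in AL.

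**Figure D4:**
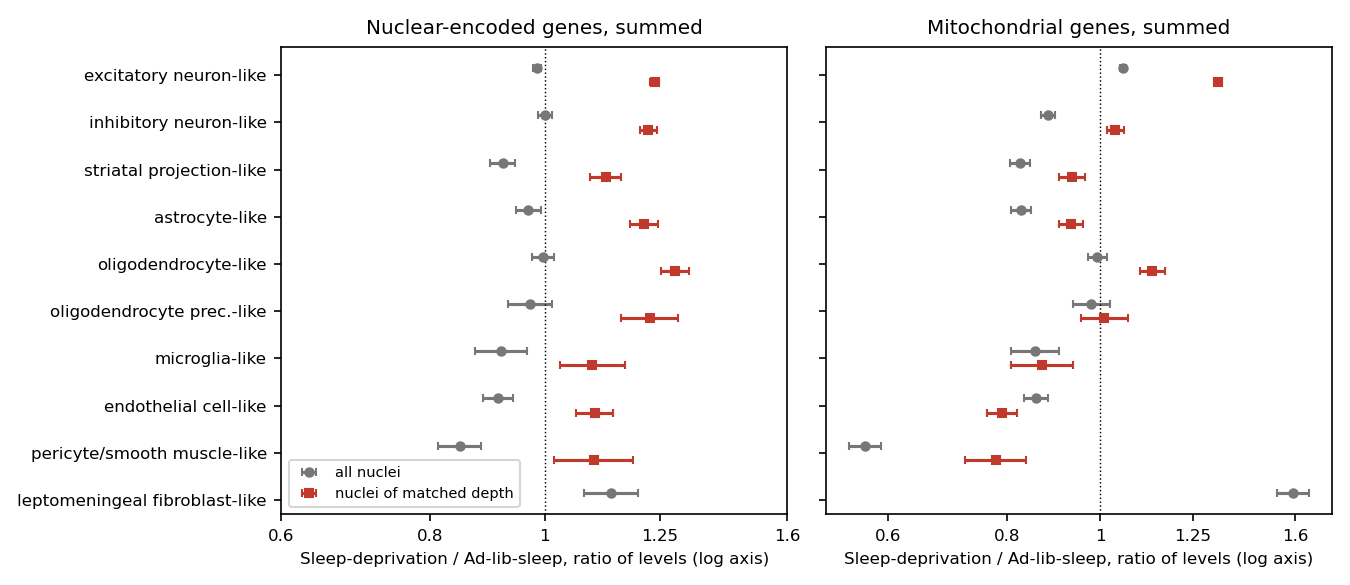
Ratio of the SD to the AL summed level (x axis, log scale) by cell class (y axis) for the nuclear (left) and mitochondrial (right) genes, over all nuclei (grey) and at matched depth (red). All matched nuclear ratios lie between 1.10 and 1.29, while the mitochondrial ones lie on both sides of 1.

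When nuclei were instead compared by their depth rank in their own library, this excess was absent. Cut into 5 equal parts by depth rank, from shallow to deep, excitatory neurons had nuclear ratios of SD to AL of 1.01, 0.942, 0.942, 0.985 and 1.06. Over 6 classes 10 of 30 such parts were above 1. The shallowest and deepest parts had medians of 5727 and 26775 UMIs in SD, and of 3403 and 14205 UMIs in AL, so equal ranks were not equal depths. The mitochondrial genes did not share 1 direction over classes. At matched depth their ratio was 1.33 in excitatory, 1.13 in oligodendrocyte-like, 1.04 in inhibitory and 1.01 in precursor-like nuclei, but 0.790 in endothelial-like, 0.778 in pericyte-like, 0.870 in microglia-like, 0.932 in astrocyte-like and 0.935 in striatal-projection-like nuclei.

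Other readouts moved with the matched-depth ratio. Cytosolic ribosomal proteins summed to 5508 CPM in SD and 3994 CPM in AL matched excitatory neurons (ratio 1.38), and the nuclear RNA Malat1 had a ratio of 1.04. The 10 excitatory markers, in the 8 other matched classes, summed to between 765 and 1953 CPM in SD and between 656 and 1693 CPM in AL, with 8 of 8 ratios above 1 (1.15 to 1.59). Of these 10 markers 9 or 10 had UMIs in each of these classes and libraries. The part of such stray transcripts in the ratios of other classes was not tested.

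Gene by gene over all excitatory neurons, the nuclear members were spread around 0. Of 90 with a mean of at least 5 CPM, 41 were higher in SD than in AL, or 45.6% against 43.9% of all features, with a median log2 ratio of -0.01 against -0.03. Of 80 with at least 20 CPM, 0 were more than 25% higher in SD and 3 more than 20% lower, against 6.45% and 8.91% of 6993 features, so neither share stood above its background. By complex 17 of 36 complex I genes, 1 of 4 complex II, 4 of 8 complex III, 4 of 12 complex IV and 9 of 17 complex V genes were higher. The complex sums in SD over AL were 0.992 (0.979 to 1.005) for complex I, 0.939 (0.899 to 0.980) for complex II, 0.999 (0.973 to 1.03) for complex III, 0.960 (0.947 to 0.973) for complex IV and 1.007 (0.992 to 1.02) for complex V. With TMM scaling those of complexes I, III and IV came to 1.04, 1.05 and 1.005.

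The lowest SD value relative to AL was that of Ndufa4 (chr6:11900292-11907497, minus strand), now counted as a subunit of complex IV. It had 144 CPM in SD and 189 CPM in AL excitatory neurons, a ratio of 0.760 (0.730 to 0.791). Ndufa4 was lower in SD in 9 of 10 classes (0.666 to 1.05), the intervals of 8 lying below 1, for example at 333 CPM in SD and 443 CPM in AL astrocyte-like nuclei. At matched depth its excitatory level was 173 CPM in SD and 163 CPM in AL, so the direction turned. Ndufb3, an accessory subunit of complex I, had 39.8 CPM in SD and 51.8 CPM in AL (0.769, 0.712 to 0.830) and stayed lower at matched depth, with a log2 ratio of -0.18. Ndufb4, another accessory subunit, had 37.0 CPM in SD and 46.3 CPM in AL, and Ndufaf7 73.3 CPM in SD and 88.6 CPM in AL. Cox7c, a small complex IV subunit, was lower in SD in 10 of 10 classes (0.785 to 0.900), at 155 CPM in SD and 175 CPM in AL excitatory neurons, but higher there at matched depth with a log2 ratio of 0.17.

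The highest SD values relative to AL were those of Ndufs7, an iron-sulfur subunit of complex I (35.0 CPM in SD and 28.3 CPM in AL), Atp5d, the delta subunit of complex V (60.3 CPM in SD and 49.4 CPM in AL), and Sdhaf3, an assembly factor of complex II (22.1 CPM in SD and 18.1 CPM in AL). Uqcrfs1, the Rieske protein of complex III, had 24.3 CPM in SD and 20.1 CPM in AL. Their ratios ran between 1.21 and 1.24. Atp5d was higher in SD in 9 of 10 classes.

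Mitochondrial genes differed more from each other. In excitatory neurons 9 of 13 were higher in SD than in AL, against 43.9% of all features, with a median log2 ratio of 0.32. Of the 11 with at least 20 CPM, 5 were more than 25% higher, against 6.45%. mt-Nd2, a complex I subunit (chrM:3914-4951), had 201 CPM in SD and 131 CPM in AL (1.53, 1.47 to 1.6), and mt-Nd4l 34.6 CPM in SD and 21.4 CPM in AL (1.61, 1.46 to 1.78). mt-Cytb, the complex III subunit, had 329 CPM in SD and 259 CPM in AL, and mt-Co1, the catalytic subunit of complex IV, 900 CPM in SD and 786 CPM in AL. Against these mt-Atp6, a complex V subunit, was lower at 505 CPM in SD and 600 CPM in AL, as was mt-Co3 at 844 CPM in SD and 929 CPM in AL. At matched depth all 13 were higher in SD, against 55.2% of all features, with a median of 0.58.

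Related lists were counted the same way for SD against AL in excitatory neurons, where 43.9% of all features were higher in SD. Assembly factors and carriers of the chain outside the naming rule had 14 of 38 genes higher in SD (median log2 -0.04), regulators of mitochondrial biogenesis 9 of 21 (-0.06), the citric acid cycle 9 of 18 (0.01) and mitochondrial carriers 9 of 15 (0.02). Glycolysis had 14 of 16 genes higher (0.17). Its Gapdh had 160 CPM in SD and 108 CPM in AL (1.48, 1.42 to 1.55), and Aldoa 148 CPM in SD and 121 CPM in AL. Of the regulators Esrrg, an orphan nuclear receptor, had 228 CPM in SD and 274 CPM in AL (0.832, 0.806 to 0.860), and Nrf1, whose motif is given above, 91.5 CPM in SD and 75.9 CPM in AL (1.21, 1.14 to 1.27). Cyc1, the cytochrome c1 of complex III, had 30.2 CPM in SD and 25.6 CPM in AL.

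At matched depth the genes moved together. Of 90 nuclear members 81 were higher in SD, against 55.2% of all features, 40 of 81 were more than 25% higher, against 13.4%, and 0 more than 20% lower, against 6.76%, with a median log2 of 0.30 beside 0.03 over all features. The exception was complex II, with 1 of 4 genes higher, where Sdhb had 0.36 and Sdha, Sdhc and Sdhd had -0.07, -0.05 and -0.01. Complex I had 34 of 36 genes higher, complex III 8 of 8, complex IV 11 of 12 and complex V 17 of 17, with medians between 0.32 and 0.38. Ribosomal proteins had 78 of 78 higher (0.44), glycolysis 16 of 16 (0.34), the regulators 9 of 21 (-0.04) and retained noncoding RNAs 2 of 9 (-0.05).

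The Ex13del against SIK3-WT comparison sets the 2 vector libraries side by side. In excitatory neurons the nuclear genes summed to 4697 CPM in Ex13del and 4773 CPM in SIK3-WT, a ratio of 0.984 that was 1.01 (1.003 to 1.02) at matched depth and 0.939 with TMM scaling. The mitochondrial genes summed to 3714 CPM in Ex13del and 3857 CPM in SIK3-WT (0.963). Of 90 nuclear members 45 were higher in Ex13del, against 62.2% of all features, and the medians were 0.00 and 0.04. Of 80 with at least 20 CPM, 1 was more than 25% higher and 1 more than 20% lower, against 2.07% and 0.328% of 7004 features. At matched depth 58 of 90 were higher in Ex13del, against 64.6%, and of 80 genes 2 were more than 25% higher and 1 more than 20% lower, against 2.6% and 0.357%. The share of genes higher over all nuclei lay below its background, and the share at matched depth next to it.

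Of the 5 complexes complex IV had the lowest ratio in this comparison. It summed to 1360 CPM in Ex13del and 1495 CPM in SIK3-WT excitatory neurons, a ratio of 0.910 (0.897 to 0.923) that was 0.941 at matched depth and 0.868 with TMM scaling. Of its 12 measured genes 1, Cox7b2, was higher, at 6.15 CPM in Ex13del and 5.99 CPM in SIK3-WT. Complex I had a ratio of 1.01 (0.997 to 1.03), which was 0.965 with TMM scaling, complex II 1.09 (1.04 to 1.14), complex III 0.977 (0.948 to 1.01), and complex V 1.03 (1.02 to 1.05), which was 0.987 with TMM scaling. The complex IV ratio was below 1 in 10 of 10 classes, with intervals below 1 in 9, between 0.835 in astrocyte-like nuclei (2723 CPM in Ex13del and 3263 CPM in SIK3-WT) and 0.963 in pericyte-like nuclei. In inhibitory neurons it was 1741 CPM in Ex13del and 1957 CPM in SIK3-WT. The vector promoter is neuronal, and the lower values were found in neuronal and other classes. All classes of a group share 1 library, so kinase form and library cannot be told apart here, and the cause was not tested.

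The gene with the most UMIs behind this was Cox8a (chr19:7215153-7217616, minus strand), a small subunit of complex IV. It had 225 CPM in Ex13del and 271 CPM in SIK3-WT excitatory neurons, a ratio of 0.829 (0.801 to 0.858), with 266 CPM in SD and 249 CPM in AL, so the Ex13del value was the lowest of the 4. It was lower in Ex13del in 10 of 10 classes (0.724 to 0.829), as at 426 CPM in Ex13del and 589 CPM in SIK3-WT astrocyte-like nuclei and 806 CPM in Ex13del and 1030 CPM in SIK3-WT endothelial-like nuclei. Cox6a1 (chr5:115345642-115348981), whose promoter is shown above, had 54.9 CPM in Ex13del and 70.8 CPM in SIK3-WT (0.775, 0.723 to 0.831), and Cox6b1 (chr7:30616861-30626151) 76.1 CPM in Ex13del and 89.3 CPM in SIK3-WT (0.852, 0.802 to 0.905). Both were lower in 9 of 10 classes. Cox4i1, the common subunit 4, differed less, at 159 CPM in Ex13del and 164 CPM in SIK3-WT.

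In the other direction stood Atp5k (chr5:108433244-108434448, minus strand), the e subunit of complex V that helps ATP synthase form dimers. It had 59.7 CPM in Ex13del and 40.3 CPM in SIK3-WT excitatory neurons (1.48, 1.37 to 1.6), with 45.8 CPM in SD and 40.7 CPM in AL, so Ex13del was the highest library. It was higher in Ex13del in 9 of 10 classes (0.905 to 1.78), for example at 77.1 CPM in Ex13del and 51.9 CPM in SIK3-WT inhibitory neurons, and microglia-like nuclei were the exception at 127 CPM in Ex13del and 140 CPM in SIK3-WT. At matched depth its log2 ratio was 0.61, that of Cox8a -0.22 and that of Cox6a1 -0.32. Atp5mpl of complex V followed at 38.2 CPM in Ex13del and 31.4 CPM in SIK3-WT (1.22, 1.11 to 1.34), and Ndufa1 of complex I at 31.6 CPM in Ex13del and 26.3 CPM in SIK3-WT (1.20).

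In the related lists of this comparison 19 of 37 assembly factors were higher in Ex13del, 11 of 21 regulators, 8 of 18 citric acid cycle genes, 7 of 15 carriers, 9 of 16 glycolysis genes and 36 of 78 ribosomal proteins, with medians between -0.02 and 0.04. Each of these shares lay below the 62.2% of all features that were higher in Ex13del. Single genes in these lists differed by amounts like that of Atp5k. Rpl35 had 29.3 CPM in Ex13del and 17.2 CPM in SIK3-WT (1.70), Eno1 46.5 CPM in Ex13del and 34.2 CPM in SIK3-WT (1.36), and Bcs1l, an assembly factor of complex III, 41.6 CPM in Ex13del and 32.2 CPM in SIK3-WT (1.29). The 10 excitatory markers in 8 other matched classes summed to between 627 and 1807 CPM in Ex13del and between 724 and 1783 CPM in SIK3-WT, with 1 ratio of 8 above 1, and their part in the ratios was not tested.

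The SIK3-WT against AL comparison sets vector and kinase together against neither, and it shares the AL library with SD against AL. In excitatory neurons the nuclear genes summed to 4773 CPM in SIK3-WT and 5007 CPM in AL (0.953, 0.946 to 0.960), and at matched depth to 4995 CPM in SIK3-WT and 4799 CPM in AL (1.04), so the direction turned. Of 90 nuclear members 18 were higher in SIK3-WT, against 45.2% of all features, with 0 of 79 more than 25% higher and 1 more than 20% lower, against 1.92% and 2.22%. At matched depth 47 of 90 were higher, against 52.3%, with 1 of 79 more than 25% higher and 0 more than 20% lower, against 2.49% and 1.59%. Complex I had 4 of 36 genes higher over all nuclei and 17 of 36 at matched depth, and over all nuclei complex III had 1 of 8, complex V 2 of 17 and complex IV 5 of 12. Ndufs6 of complex I was lowest, at 19.2 CPM in SIK3-WT and 24.3 CPM in AL (0.790), and Atp5o, the stalk subunit of complex V, had 39.5 CPM in SIK3-WT and 49.2 CPM in AL (0.804). Cox6a1 was the highest, at 70.8 CPM in SIK3-WT and 59.5 CPM in AL (1.19).

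The mitochondrial genes summed to 3857 CPM in SIK3-WT and 3765 CPM in AL excitatory neurons (1.02, 1.02 to 1.03), and at matched depth to 4072 CPM in SIK3-WT and 3602 CPM in AL (1.13). Of 13 genes 8 were higher, against 45.2% of all features, and 13 of 13 at matched depth, against 52.3%. mt-Nd4 had 378 CPM in SIK3-WT and 304 CPM in AL (1.24), and mt-Nd6, which lies opposite mt-Nd5 on the other strand, 17.2 CPM in SIK3-WT and 9.63 CPM in AL (1.79, 1.55 to 2.07). Malat1 had a ratio of 0.849 in the same nuclei.

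For most mitochondrial genes the part in the makeup of the mitochondrial transcripts differed between libraries more than between cell classes. For this each gene was taken as a share of the mitochondrial UMIs, which removes the total. Over all named classes the SD between libraries was larger than the SD between classes for 10 of 13 genes, all but mt-Co1, mt-Atp8 and mt-Cytb. In the fibroblast-like class mt-Co1 took 17.4%, against 20.6 to 22.7% in the means of the other 9 classes. Over these 9 classes it was 12 of 13 genes, all but mt-Atp8. Over the 9 classes mt-Nd2 took 3.99 to 4.25% in the class means but 3.497 to 5.17% in the library means. In excitatory neurons its share was 5.06% in SD, 4.02% in Ex13del, 3.81% in SIK3-WT and 3.49% in AL, and in endothelial-like nuclei 4.64% in SD, 4.34% in Ex13del, 3.78% in SIK3-WT and 3.70% in AL. Both classes thus had the same order of libraries.

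**Figure D5:**
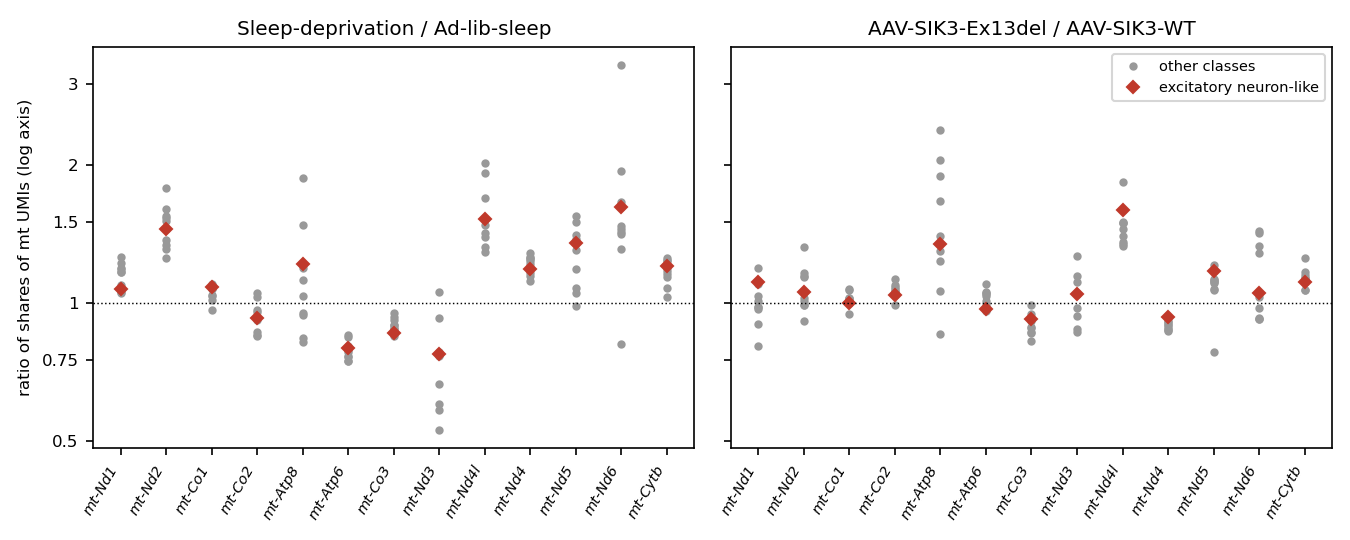
Ratio of each mitochondrial gene's share of mitochondrial UMIs (y axis, log scale) by gene (x axis), SD over AL on the left and Ex13del over SIK3-WT on the right, excitatory neurons in red and other classes in grey. mt-Nd2 and mt-Nd4l lie above 1 and mt-Atp6 and mt-Co3 below 1 in all 10 classes on the left.

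In SD against AL over all kept nuclei, mt-Nd2 took 5.12% in SD and 3.52% in AL, mt-Nd4l 0.820% in SD and 0.525% in AL, and mt-Nd4 9.75% in SD and 8.21% in AL. Each share was higher in SD in 10 of 10 classes. mt-Atp6 took 13.2% in SD and 16.6% in AL, and mt-Co3 21.3% in SD and 24.4% in AL, both lower in 10 of 10 classes. In Ex13del against SIK3-WT mt-Nd4l took 0.955% in Ex13del and 0.633% in SIK3-WT, higher in 10 of 10 classes with ratios between 1.33 and 1.84, and mt-Cytb 7.66% in Ex13del and 6.91% in SIK3-WT, higher in 10 of 10. mt-Co3 took 20.4% in Ex13del and 22.4% in SIK3-WT and mt-Nd4 9.17% in Ex13del and 10.03% in SIK3-WT, both lower in all 10. In SIK3-WT against AL mt-Co1 took 22.4% in SIK3-WT and 20.3% in AL, higher in 10 of 10 classes. mt-Nd4l overlaps mt-Nd4 and mt-Atp6 overlaps mt-Atp8 and mt-Co3, so how reads were shared among them can enter these shares, which was not tested.

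After thinning each nucleus to 1000 UMIs a mitochondrial UMI was found in 88.6% (87.1 to 90.02) of SD, 87.7% (86.2 to 89.0) of Ex13del, 91.3% (90.2 to 92.3) of SIK3-WT and 89.3% (88.2 to 90.3) of AL excitatory neurons, with exact binomial intervals. Unthinned the share was 100% in each library, and 1 to 5 nuclei were left out as shallower. These intervals are over nuclei of 1 library each and do not compare the groups. In layer 5 extratelencephalic nuclei the share was 78.7% in SD, 81.3% in Ex13del, 86.2% in SIK3-WT and 82.6% in AL, and in endothelial-like nuclei 99.6 to 100% in each library.

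An unnamed cluster of 3573 shallow nuclei was led by the neuronal genes Nefm, Nefl, Nrgn, Ttc9b and Calm3. Its markers met the rule of the excitatory class alone, and low depth kept it without a name. It had a higher nuclear level than any named class in every library. In it the nuclear genes summed to 27051 CPM in SD (1484 nuclei), 20048 CPM in Ex13del (675 nuclei), 19255 CPM in SIK3-WT (765 nuclei) and 20492 CPM in AL (649 nuclei), so SD stood above the other 3. The mitochondrial genes summed to 19605 CPM in SD, 20807 CPM in Ex13del, 20051 CPM in SIK3-WT and 21960 CPM in AL. This cluster was 28.1% of kept SD, 12.2% of Ex13del, 12.1% of SIK3-WT and 7.89% of AL nuclei, with a median of 939 UMIs in SD, 1208 in Ex13del, 1127 in SIK3-WT and 1285 in AL. It gave 18.8% of all nuclear member UMIs in SD, 10.8% in Ex13del, 9.28% in SIK3-WT and 7.96% in AL. A level over all kept nuclei, 6991 CPM in SD and 6525 CPM in AL for the nuclear genes, thus includes it, while the excitatory values above do not.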

How the data were processed

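UMI counts per gene and barcode were deposited by the authors as whole numbers, not normalized and without cell types. The submitters' processing notes name Cell Ranger 6.1.2 and the build mm10. Whether intronic reads and strand were used in counting is not given in the sources used here. The 4 libraries hold between 43655557 and 54070503 UMIs. Gene coordinates are 1-based on mm10, from GENCODE vM21 matched by gene identifier for all 110 members, and promoters are from RefSeq (GRCm38.p6).

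Filters kept barcodes with 500 or more genes whose share of mitochondrial UMIs was below 5%. Doublets were called with scrublet in scanpy 1.11.5 at an assumed rate of 0.8% per 1000 barcodes, because the automatic threshold called 0 to 4 per library, and 318 SD, 309 Ex13del, 394 SIK3-WT and 723 AL barcodes were removed. Nuclei were clustered without the members on 2000 variable genes found in at least 20 nuclei, with 30 components centred by library, 15 neighbours and Leiden resolution 1 (leidenalg 0.10.2). Clusters were named from marker lists. A cluster stayed unnamed where too few markers, markers of several classes or low depth left it without a name. Where several classes met the marker rule, a cluster was named if only 1 of them had markers among its 10 leading genes, and at least 2. Among clusters named this way were the endothelial-like one and cluster 17, both of which also met the excitatory rule. The pericyte-like cluster was another, and also met the endothelial and fibroblast rules. Counts were summed per class and library and divided by the class total. Ratios of sums have exact conditional 95% intervals, and shares exact Clopper-Pearson intervals. The intervals on ratios were checked on simulated data. Intervals at matched depth are instead a normal approximation on the log scale, with the Poisson variance of each range's UMIs carried through its weight. Log2 ratios use CPM plus 1, over genes averaging at least 5 CPM in the pair, and ratios more than 25% higher or 20% lower are counted from 20 CPM. Matched depth compares nuclei in the same range of UMIs outside the members, with edges at 1000, 2000, 4000, 8000 and 16000 UMIs. Each range needed at least 20 nuclei per library. Its weight was its UMIs summed over both libraries, and was the same for both. TMM factors are from edgeR 4.0.16. Other tools were python 3.11.15, numpy 2.4.6, pandas 2.3.3, scipy 1.17.1 and matplotlib 3.10.9. With 1 library per group no test was made. Alternatives were the doublet, gene-number and mitochondrial filters, clustering without centring or at resolution 2, thinning to 2000 UMIs, means of per-nucleus shares, UMIs without the mitochondrial genes in the total, TMM factors and the CPM floor.

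The members and lists were chosen with earlier results of these data known. The name thresholds, the doublet rate, and the alternatives by matched depth, 5 parts by depth rank, classes at 2000 to 4000 UMIs, and leaving out cluster 23 (79.7% Ex13del) or cluster 17 (shallow oligodendrocyte-like nuclei) were chosen after seeing the data. Genes are named by rule. The rules took the isoform genes, the 5 highest and 5 lowest nuclear ratios per comparison from 20 CPM, and the mitochondrial genes. They also took the 3 leading members of each class that was ranked, and the 3 members per complex with most UMIs. The 2 highest and 2 lowest of each related list were taken too. Of all these genes those that matter most are printed. Cox7c, Cox6b1, Cox4i1, Cox7b2, Gapdh, Atp5e and the genes shown by depth may also be named for their values, seen beforehand. No column of the deposited tables was left out.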

Additional observations from a re-analysis of the deposited data

Results flagged for a closer look

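Between cell classes the same comparison ran in opposite directions, with 95% counting intervals on either side of 1. These differences between classes were not tested, since each group is 1 library. For the nuclear genes in SD over AL, fibroblast-like nuclei had a ratio of 1.14. Excitatory neurons had 0.985, striatal-projection-like nuclei 0.921, astrocyte-like 0.968, microglia-like 0.919, endothelial-like 0.913 and pericyte-like 0.847. The fibroblast-like value rests on 46 SD and 59 AL nuclei. For the mitochondrial genes in SD over AL, excitatory neurons had 1.06 and fibroblast-like nuclei 1.59. On the other side of 1 were inhibitory neurons with 0.882, striatal-projection-like nuclei with 0.824, astrocyte-like with 0.827, microglia-like with 0.855, endothelial-like with 0.857 and pericyte-like with 0.568. For the mitochondrial genes in Ex13del over SIK3-WT, striatal-projection-like nuclei had 1.03. Excitatory neurons had 0.963, inhibitory 0.958, astrocyte-like 0.851, oligodendrocyte-like 0.897, precursor-like 0.815, microglia-like 0.883, endothelial-like 0.914 and fibroblast-like nuclei 0.801.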

How the results depend on the processing

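No paired analysis was possible because each group is 1 library. Of the nuclear ratios in other classes matched depth moved 8, reversed 7 and left 1 within counting error, and of the mitochondrial ones dropping the mitochondrial filter moved 14, reversed 1 and left 3. At matched depth the nuclear SD over AL ratio was 1.24 in excitatory, 1.13 in striatal-projection-like, 1.21 in astrocyte-like and 1.10 in microglia-like, endothelial-like and pericyte-like nuclei, with a gene median of 0.30. The mitochondrial one was 1.33 in excitatory and 1.04 in inhibitory neurons (median 0.58), and 48 members were more than 25% higher and 0 more than 20% lower. Ex13del over SIK3-WT then had nuclear ratios of 1.01 in excitatory, inhibitory and striatal-projection-like nuclei and mitochondrial ones of 0.990 in excitatory and 1.01 in inhibitory neurons. SIK3-WT over AL had 1.04 for the nuclear and 1.13 for the mitochondrial genes, medians of 0.0043 and 0.17, and 2 members higher and 0 lower. In 5 parts by depth rank the mitochondrial Ex13del ratio was 0.947, and of the nuclear ratios of the other classes 12 of 12 stayed within counting error.

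For SD over AL in excitatory neurons the nuclear ratio (0.985) was 0.995 with doublets kept, 0.994 thinned, 0.969 without centring, 1.03 with TMM factors and 0.995 as a mean of shares. TMM gave 1.01 in striatal-projection-like nuclei. A floor of 1000 genes gave 1.003 in astrocyte-like and 1.06 in endothelial-like nuclei, thinning 1.09 in astrocyte-like, 1.12 in microglia-like and 1.08 in endothelial-like nuclei, and under 1% mitochondrial UMIs 1.03 in microglia-like nuclei. The mitochondrial ratio (1.06) was 1.04 without the mitochondrial filter, 1.03 under 1%, 1.07 thinned, 1.04 without centring and 1.11 with TMM. The mitochondrial median (0.32) was 0.26 under 1%, 0.39 with TMM and 0.19 from 50 CPM. Members more than 25% higher (5) were 3 without centring, 9 with TMM and 10 without a floor. Those lower (3) were 5 thinned, 1 with TMM, 6 without a floor and 1 from 50 CPM.

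For Ex13del over SIK3-WT the nuclear ratio (0.984) was 0.972 under 1%, 0.997 thinned, 0.939 with TMM and 0.995 as a mean of shares. The mitochondrial one (0.963) was 0.940 under 1%, 0.937 thinned, 0.919 with TMM and 0.935 as a mean of shares. It was 1.03 without the filter and 1.01 under 1% in endothelial-like nuclei, and 1.04 as a mean of shares in fibroblast-like nuclei. Members higher (2) were 7 thinned and 1 from 50 CPM, and those lower (1) were 2 thinned, 2 with TMM and 2 without a floor. For SIK3-WT over AL the nuclear ratio (0.953) was 0.972 with TMM and 0.946 as a mean of shares. The mitochondrial one (1.02) was 1.05 under 1% and 1.04 thinned, with TMM and as a mean of shares, and its median (0.05) was 0.11 thinned. Members higher (0) were 1 under 1%, 2 thinned, 1 with TMM and 3 without a floor, and those lower (1) were 7 thinned, 0 with TMM, 5 without a floor and 0 from 50 CPM.

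The endothelial-like over excitatory nuclear ratio (3.39) was 2.87 under 1%, 2.96 with 1000 genes, 3.20 with doublets kept, 2.43 thinned, 3.18 at resolution 2, 3.27 as a mean of shares and 1.39 at 2000 to 4000 UMIs. The mitochondrial one (4.59) was 5.87 without the filter, 2.47 under 1%, 3.96 thinned, 3.98 as a mean of shares and 2.36 at 2000 to 4000 UMIs, and the precursor-like over excitatory nuclear ratio (1.76) was 0.987 there. Without cluster 17 the oligodendrocyte-like over excitatory ratios (2.54 nuclear, 3.09 mitochondrial) were 2.23 and 2.39. Without cluster 23 the excitatory ratios stayed within counting error, with 4 members more than 25% higher in SD than in AL in place of 5. Thinned to 2000 UMIs a mitochondrial UMI was found in 96.7% of SD, 96.7% of Ex13del, 97.8% of SIK3-WT and 97.4% of AL excitatory neurons. Taking the mitochondrial genes out of the total left 18 of 18 ratios of the other classes within counting error, for the nuclear and for the mitochondrial sums. Without centring a cluster of 700 nuclei, and with doublets kept one of 805, met both microglia and excitatory markers and stayed unnamed. Named microglia-like nuclei were then too few to give a value, as were fibroblast-like nuclei under 1%. The causes of these changes were not tested. Differences of a few percent between single libraries are of the size that these choices make, and genes under 20 CPM are limited by their UMI number.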
